A study of Amia calva with 36 samples.

Results

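Dorsal and ventral foregut mesoderm of the bowfin (Amia calva) were compared at Ballard stage 27, during outgrowth of the gas bladder. The comparison used 6 of the 36 libraries of the study, chosen by their labelled side, layer and stage: 3 of dorsal mesoderm, labelled as foregut and gas bladder, and 3 of ventral mesoderm, labelled as foregut alone. The 3 dorsal and 3 ventral endoderm libraries of the same stage were used to describe mesoderm levels of genes higher in endoderm. The part of endoderm RNA in the mesoderm captures was not tested. All embryos came from eggs collected in lake nests and reared at 12.8 °C, and no strain, treatment or age beyond the stage is given. The study holds 12 groups of 3 libraries, from dorsal and ventral endoderm and mesoderm at 3 stages (24, 25 and 27). Tissue was captured by laser from transverse sections of 15 µm, so each library is a small excised region and not a purified cell type. Which embryos a library came from is not labelled, nor whether embryos were pooled. The p-values therefore measure only a spread between libraries, which may be technical. For each gene, limma took this spread from all 12 stage 27 libraries and drew it toward a trend over all genes tested. The p-values are too small where libraries of the same group share an embryo, and sharing between groups is not taken into account.

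In the bowfin, a ray-finned fish, the air-filled gas bladder arises as a bud on the dorsal side of the foregut, the side opposite to that of lungs. In vertebrate gut the endoderm forms the epithelial lining, and the mesoderm around it gives rise to smooth muscle and connective tissue and exchanges signals with the endoderm as organs bud. The comparison asks which genes differ between the tissue around the bud and that of the opposite wall. Genes are given by their bowfin identifiers with, where the table has one, the Ensembl identifier of the spotted gar ortholog. Gene names are not paired with identifiers in the files, so no gene is given a role, and the labelled layers could not be checked against known endoderm or mesoderm markers.

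The dorsal mesoderm libraries were the shallower ones, with 1019146, 1133036 and 723011 reads assigned to genes, against 1757712, 1568078 and 1418444 in ventral mesoderm. Totals of the 12 stage 27 libraries ran from 723011 to 1998280. Thinned to 723011 reads each, dorsal mesoderm held reads of 12265, 10625 and 8511 genes (mean 10467 ± 1882, SD, n = 3), against 12635, 10471 and 11562 in ventral mesoderm (11556 ± 1082). Dorsal replicate 3, which is also the shallowest library, had the fewest genes, and the sides overlapped (ratio 0.906, two-sided exact permutation p = 0.5, adjusted p = 0.5 over 3 such tests). Across genes, log2 CPM (reads scaled to the library total, on the log2 scale) correlated at 0.666 to 0.769 between dorsal libraries, at 0.764 to 0.814 between ventral libraries and at 0.637 to 0.799 between a dorsal and a ventral library. These ranges overlap, and genes are not independent replicates.

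Of 13471 genes tested, 37 (0.275%) differed between dorsal and ventral mesoderm, 9 higher dorsally (0.0668%) and 28 higher ventrally (0.208%), at an adjusted p under 0.05 with limma. The 9 dorsal genes included 3 without a read in ventral mesoderm, and the 28 ventral genes included 7 without a read in dorsal mesoderm. Their log2 differences ran from 1.64 to 9.03 in size, and 923 genes (6.85%) had an unadjusted p under 0.05. The 3 dorsal and 3 ventral libraries did not overlap for any of the 37, which follows largely from their choice by this same difference. Over all genes tested the dorsal libraries lay wholly above the ventral ones for 604 (4.48%) and wholly below for 1011 (7.51%). A gar ortholog was given for 29 of the 37 (78.4%) and for 60.2% of the genes tested. In tissue captures, fewer cells of a type and less RNA per cell cannot be told apart.

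The number of genes depended on which libraries gave the spread: limma called 1 gene with the 6 mesoderm libraries alone, 171 with all 36 libraries, 9 without ventral mesoderm replicate 2 and 22 without ventral mesoderm replicate 1. Median centring removes a difference of -0.41 in the median log2 CPM of the tested genes (mean over dorsal libraries 3.69, over ventral ones 4.10). The medians were 4.29, 3.91 and 2.88 in the dorsal libraries, against 4.32, 3.87 and 4.12 in the ventral ones. Dorsal replicate 3 thus lay below all others, while the other dorsal libraries lay within the ventral range. Centring gave 11 genes higher and 17 lower dorsally in place of 9 and 28.

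**Figure D1:**
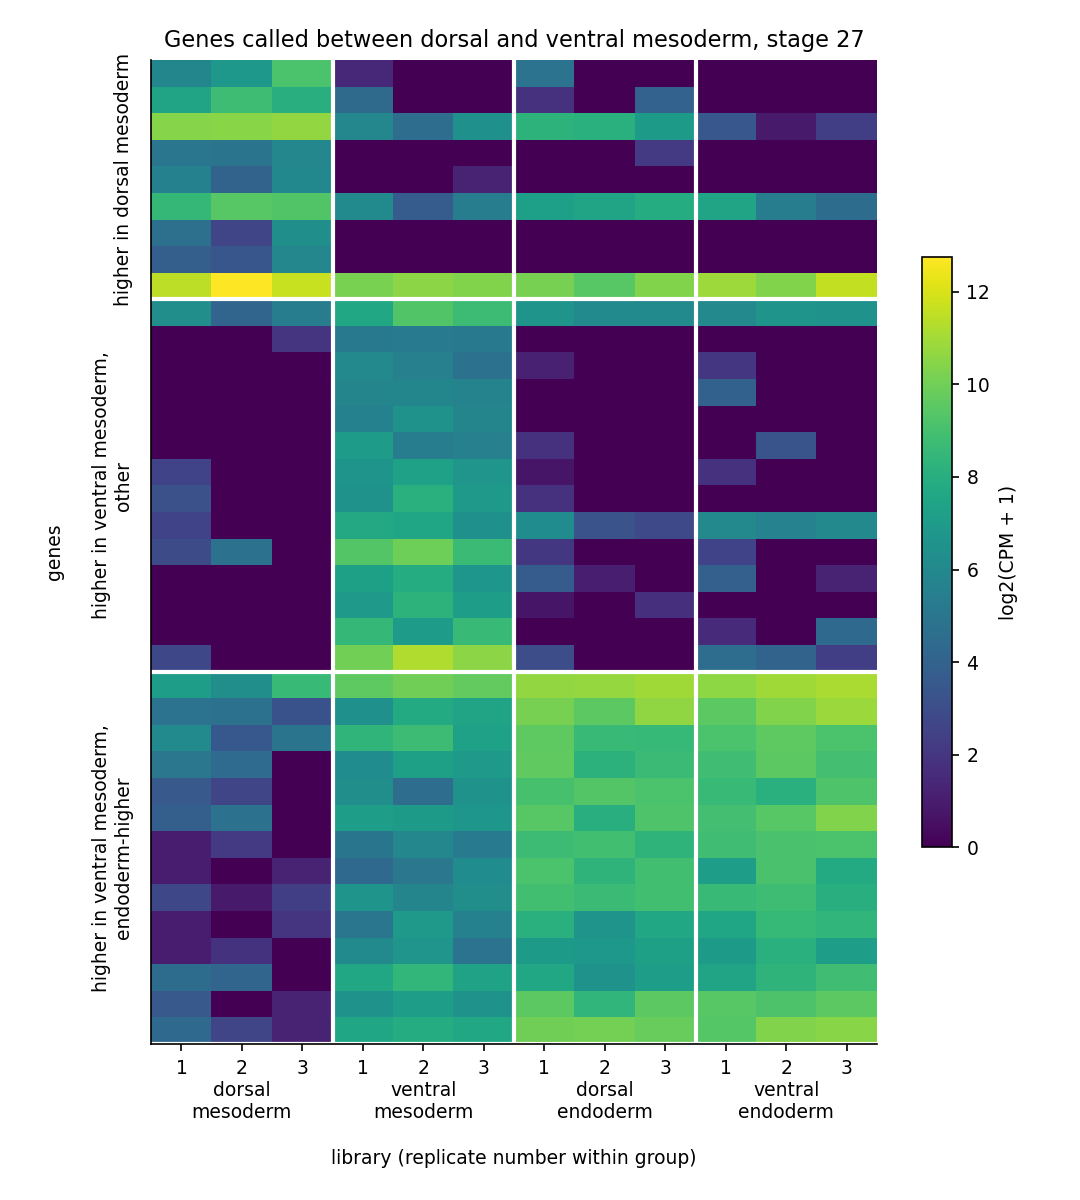
Levels of the 37 genes (one line each, as log2(CPM + 1)) in the 12 stage 27 libraries, with mesoderm on the left and endoderm on the right, dorsal before ventral within each layer. From top to bottom stand 9 genes higher in dorsal mesoderm, 14 genes higher in ventral mesoderm that were not higher in endoderm, and 14 genes higher in ventral mesoderm that were higher in endoderm than in mesoderm and are bright in all endoderm libraries.

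Of the 9 genes higher in dorsal mesoderm, 6 were higher in mesoderm than in endoderm with both sides averaged, 0 were higher in endoderm and 3 differed in neither direction. The layer comparison uses the same dorsal mesoderm libraries that made the side call, so a gene read in these alone counts as mesoderm-higher, as 2 of the 6 did, and the layer count is a description. Over all genes tested, limma called 1373 between the layers (10.2%), 878 higher in mesoderm (6.52%) and 495 higher in endoderm (3.67%). Mean levels of the 9 ran from 27.2 to 4378 CPM in dorsal mesoderm (median 243) and from 0 to 1308 CPM in ventral mesoderm (median 0.569). Dorsal mesoderm lay above dorsal endoderm for 9 of 9, and the endoderm level was at most 33.1% of the mesoderm level (median 3.0%). The layer call and the side call share 1 estimate of the spread per gene.

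AMCG00012666 (ENSLOCG00000015474) had the largest log2 difference of the dorsal genes. It had 57.9, 112 and 559 CPM in dorsal mesoderm (mean 243 ± 275, SD, n = 3), against 1.71, 0 and 0 CPM in ventral mesoderm, where 3 reads were found in all. The dorsal libraries spread widely, with replicate 3 far above the other two, and none overlapped a ventral one. The fitted log2 difference was 6.10 (SE 1.27, limma adjusted p = 0.0168) and depends on the prior count, since ventral mesoderm was nearly without reads. In endoderm it had 27.6, 0 and 0 CPM dorsally and no read ventrally.

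AMCG00004155 (ENSLOCG00000015840) had 173, 436 and 260.0 CPM in dorsal mesoderm, against 20.5, 0 and 0 CPM in ventral mesoderm. Its ventral reads came from replicate 1 alone, and all dorsal libraries lay well above that one. The means of 289.6 ± 134 and 6.83 ± 11.8 CPM (SD, n = 3 each) gave a fitted log2 difference of 6.01 (SE 1.29, limma adjusted p = 0.0192). Dorsal endoderm held 2.57, 0 and 15.4 CPM and ventral endoderm no read. Both calls were lost in several alternatives while the log2 difference stayed between 5.17 and 6.79 for AMCG00012666, and between 5.41 and 7.21 for AMCG00004155, with any single library left out. AMCG00012666 and AMCG00004155 each missed the threshold in 9 of 30 alternatives, without ventral mesoderm replicate 2 or 3 or dorsal mesoderm replicate 3 in both cases. AMCG00012666 also missed it without ventral mesoderm replicate 1, and AMCG00004155 without dorsal mesoderm replicate 2.

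AMCG00016115 (ENSLOCG00000008539) was the 1 gene called on the same side in both layers, and is named after its values were seen. It had 1384, 1444 and 1631 CPM in dorsal mesoderm, against 59.2, 23.0 and 84.6 CPM in ventral mesoderm. The dorsal libraries agreed closely and the means of 1486 ± 128 and 55.6 ± 31.0 CPM (SD, n = 3 each) stood in a ratio of 26.7 (log2 difference 4.87, SE 0.74, limma adjusted p = 0.000389). In endoderm it had 299.8, 271 and 121 CPM dorsally, against 10.0, 0.886 and 4.15 CPM ventrally (log2 difference 5.23, SE 0.74, limma adjusted p = 0.000296). The side difference in mesoderm minus that in endoderm was -0.36 (SE 1.04, limma adjusted p = 0.991). Dorsal endoderm thus held 15.5% of the dorsal mesoderm level and ventral endoderm 9.02% of the ventral mesoderm level; the part of mesoderm RNA in these endoderm values was not tested. The mesoderm call was lost in 4 of 30 alternatives, among them the fit of all 36 libraries (limma adjusted p = 0.222; 2.1e-05 to 0.37 over the 30).

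AMCG00004892, which has no gar ortholog in the table, differed in the opposite direction in endoderm. It had 2905, 6925 and 3304 CPM in dorsal mesoderm, against 1155, 1484 and 1285 CPM in ventral mesoderm. In endoderm it had 1113, 695 and 1309 CPM dorsally, against 1919, 1294 and 3036 CPM ventrally. The mesoderm sides did not overlap, while dorsal endoderm replicate 3 lay just above ventral endoderm replicate 2. The log2 difference was 1.64 in mesoderm (SE 0.34, limma adjusted p = 0.0168) and -0.96 in endoderm (SE 0.34, limma adjusted p = 0.665), and the difference between the layers was 2.60 (SE 0.48, limma adjusted p = 0.0366). This call was the least stable of the genes named here. The mesoderm difference missed the threshold in 13 of 30 alternatives, among them quantile normalization and median centring. The 13 included the fits without dorsal mesoderm replicate 2 or any 1 of the ventral mesoderm libraries. With no variance trend the SE of the mesoderm difference was 0.69 in place of 0.34 (limma adjusted p = 0.659).

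The 28 genes higher in ventral mesoderm fell into 2 sets of equal number by their level in endoderm. Endoderm-higher genes made up 14 of the 28 (50%), against 3.67% of all genes tested. The layer comparison uses the same mesoderm libraries as the side call, and a low dorsal mesoderm level lowers the mesoderm average. Both calls also share an estimate of the spread per gene, so this share is a description. This share depended on the fit: it was 3 of 8 without ventral mesoderm replicate 2, 8 of 36 with limma voom, 7 of 24 with no variance trend and 5 of 17 with median centring. With all 36 libraries it was 1 of 92, while the list held 3.67% of all genes tested. In that fit the ventral calls thus held no larger share of the list than all genes did. Of the other 14 ventral genes, 8 were higher in mesoderm and 6 differed in neither direction.

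**Figure D2:**
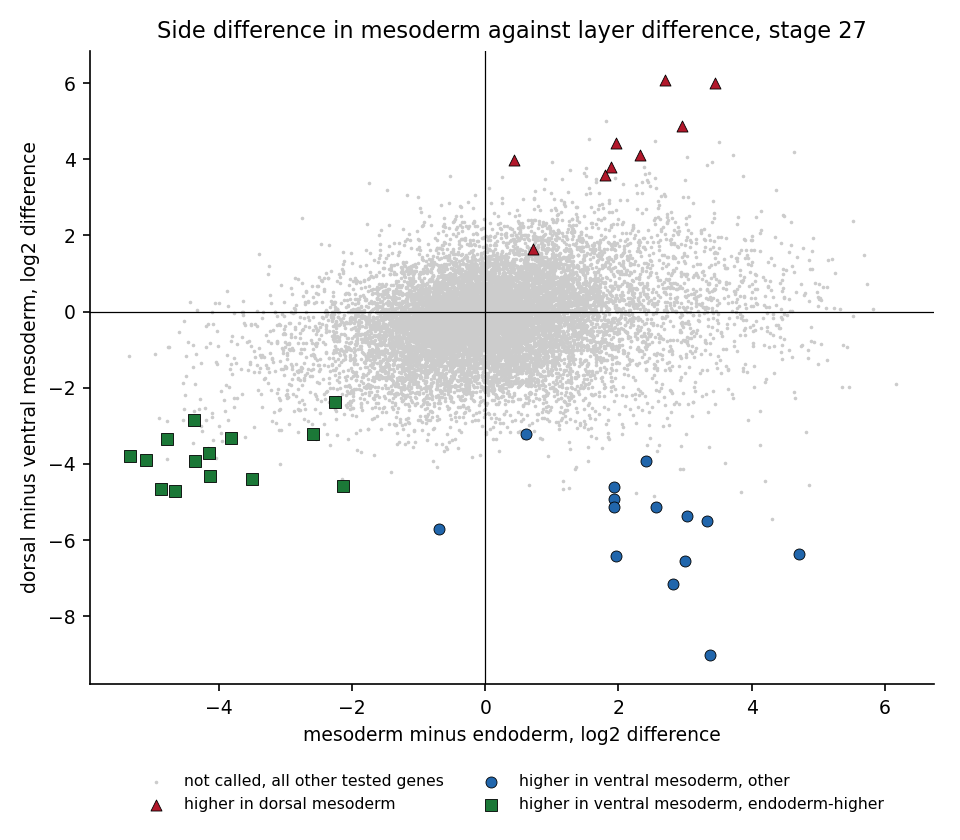
Each of the 13471 tested genes is a point placed by its log2 difference between mesoderm and endoderm (x axis) and between dorsal and ventral mesoderm (y axis), with the 37 called genes coloured. The 9 dorsal genes (triangles) lie right of 0, whereas the 28 ventral genes split into 14 at negative layer differences (squares) and 14 of which 13 lie right of 0 (circles).

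Most of the 14 ventral genes that were not endoderm-higher had few or no reads in dorsal mesoderm. Their mean levels ran from 0 to 45.6 CPM in dorsal mesoderm (median 0.461), with no dorsal read for 7 of the 14, and from 36.2 to 1633 CPM in ventral mesoderm (median 158). Ventral mesoderm lay above ventral endoderm for 14 of 14, and the endoderm level was at most 37.2% of it (median 1.54%). The genes were chosen on these same libraries, as higher in ventral mesoderm and not endoderm-higher, so these levels are a description. Log2 differences ran from -9.03 to -3.21 (median -5.43).

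AMCG00008538 (ENSLOCG00000008170) had 5.89, 0 and 0 CPM in dorsal mesoderm, against 1046, 2379 and 1474 CPM in ventral mesoderm. Dorsal mesoderm averaged 1.96 ± 3.40 CPM, from 6 reads in replicate 1, and ventral mesoderm 1633 ± 681 CPM (SD, n = 3 each). Every ventral library lay far above the single dorsal one with reads (log2 difference -9.03, SE 1.12, limma adjusted p = 1.83e-05). Dorsal endoderm held 7.06, 0 and 0 CPM, and ventral endoderm 22.5, 15.9 and 4.15 CPM, which is 0.870% of the ventral mesoderm level. The gene missed the threshold in 2 of 30 alternatives, both of which leave out 1 library of every group.

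AMCG00004620 (ENSLOCG00000006231) had no read in dorsal mesoderm, against 366, 127 and 384 CPM in ventral mesoderm (mean 292 ± 143, SD, n = 3). The ventral mean was 279.9 times a floor of 3 reads over the dorsal group, or 1.04 CPM. The side difference in mesoderm had a limma adjusted p of 0.00241. Dorsal endoderm had no read either, and ventral endoderm had 2.00, 0 and 19.3 CPM. The gene thus had reads on the ventral side alone in both layers, with the highest endoderm value in replicate 3; it missed the threshold in 4 of 30 alternatives, none of which leaves out a single library.

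**Figure D3:**
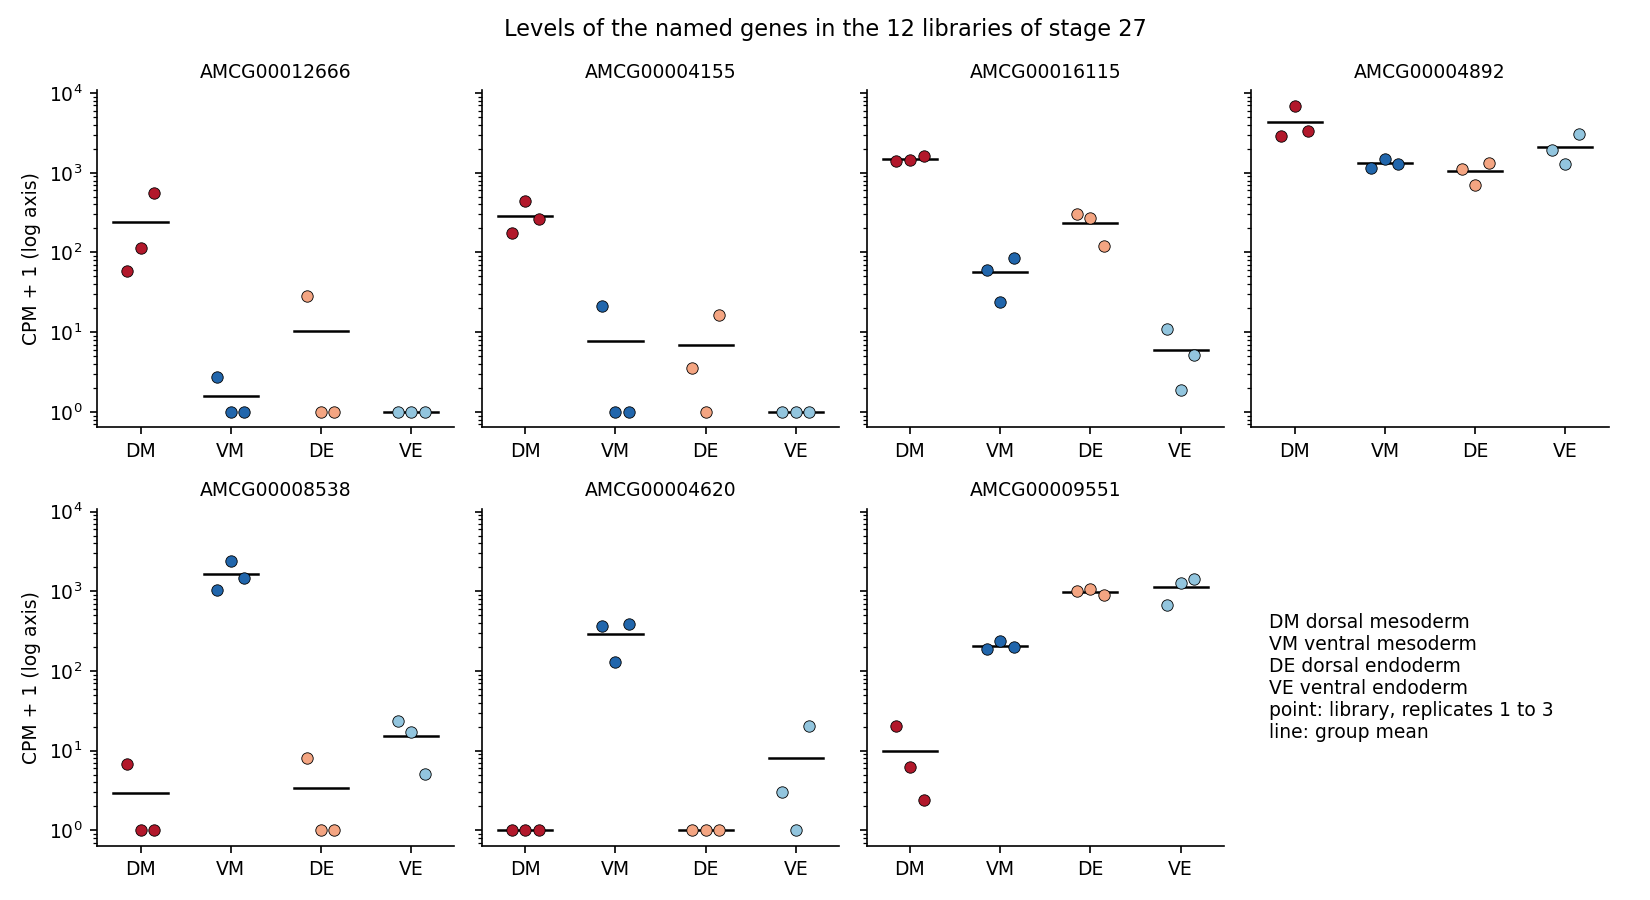
Levels of the 7 named genes in each stage 27 library, as CPM + 1 on a log axis, for dorsal mesoderm, ventral mesoderm, dorsal endoderm and ventral endoderm in turn. Points are libraries and lines group means; the upper line of panels holds genes higher in dorsal mesoderm, the lower one genes higher in ventral mesoderm, and AMCG00009551 differs from the other ventral genes in its high level in both endoderm groups (989 and 1124 CPM).

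The other 14 ventral genes, the endoderm-higher ones, had their highest mean levels in endoderm. They were chosen on these same libraries, as higher in ventral mesoderm and as endoderm-higher, so the levels given here are a description. Mean levels ran from 0.788 to 209 CPM in dorsal mesoderm (median 7.07), from 41.8 to 874 CPM in ventral mesoderm (median 111), from 128 to 1771 CPM in dorsal endoderm (median 508) and from 178 to 1924 CPM in ventral endoderm (median 542). All 3 libraries of ventral mesoderm, of dorsal endoderm and of ventral endoderm had reads of each of the 14, whereas all 3 dorsal mesoderm libraries had reads of 5. Ventral mesoderm exceeded ventral endoderm for 0 of 14. Dorsal mesoderm held 0.175% to 11.8% of the dorsal endoderm level (median 0.934%), and ventral mesoderm 8.10% to 73.6% of the ventral endoderm level (median 19.3%). Between the sides of endoderm 0 of the 14 were called, against 0.0371% of all genes tested, so nothing is read from this count. Their log2 differences between dorsal and ventral endoderm libraries ran from -1.12 to 0.75 (median -0.25, 11 lower and 3 higher dorsally). In mesoderm their log2 differences ran from -4.72 to -2.37 (median -3.85).

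AMCG00009551 (ENSLOCG00000006200) had the largest log2 difference of these 14. It had 19.6, 5.30 and 1.38 CPM in dorsal mesoderm, against 187, 235 and 199 CPM in ventral mesoderm. In endoderm it had 1002, 1073 and 890.2 CPM dorsally, against 679, 1274 and 1419 CPM ventrally. The mesoderm sides lay far apart and the endoderm sides overlapped. The log2 difference was -4.72 in mesoderm (SE 0.61, limma adjusted p = 2.36e-05) and -0.12 in endoderm (SE 0.61, limma adjusted p = 1.0), and the difference between the layers was -4.60 (SE 0.86, limma adjusted p = 0.0366). Dorsal mesoderm held 0.887% of the dorsal endoderm level and ventral mesoderm 18.4% of the ventral endoderm level. The mesoderm call was lost in 5 of 30 alternatives, among them limma voom on recovered reads (adjusted p = 0.078; 1.75e-06 to 0.383 over the 30).

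AMCG00004892 and AMCG00009551 were the 2 genes (0.0148% of those tested), 1 in each direction (0.00742% each), whose side difference itself differed between mesoderm and endoderm, where 5.24% had an unadjusted p under 0.05. For the remaining 35 a difference between the layers did not pass the threshold, so none of them was shown to differ by side in mesoderm alone. Between dorsal and ventral endoderm limma called 5 genes (0.0371%, with 5.7% at an unadjusted p under 0.05), all higher dorsally, and AMCG00016115 was the 1 also called in mesoderm.

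Most endoderm-higher genes had lower levels in dorsal mesoderm than in ventral mesoderm. Of the 495, 418 had a lower mean log2 level dorsally and 76 a higher one (84.4% lower), with a median log2 difference of -0.97 and quartiles of -1.80 and -0.31. Over all 13471 genes tested the median was -0.21 and 58.5% were lower dorsally. Median centring moved the 2 medians to -0.56 and 0.20, and quantile normalization to -0.75 and -0.02. The list differed from all genes by -0.76 before and after median centring, which shifts every gene equally and cannot change this difference. With quantile normalization the list differed from all genes by -0.73. The 3 dorsal libraries lay wholly below the ventral ones for 111 of the 495 (22.4%), against 7.51% of all genes, and wholly above for 2. In endoderm itself the same genes had a median side difference of -0.07, with 52.1% lower dorsally.

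Summed over the list, the share of reads in endoderm-higher genes was 2.57%, 2.35% and 1.72% in the dorsal mesoderm libraries, against 3.50%, 3.66% and 3.70% in the ventral ones. In endoderm they took 11.0% ± 0.383 dorsally and 12.0% ± 2.38 ventrally (SD, n = 3 each). The list was chosen on all 12 of these libraries, mesoderm included, so the shares are not independent of that choice. Every dorsal mesoderm library lay below every ventral one. The means of 2.21% ± 0.441 and 3.62% ± 0.105 stood in a ratio of 0.611 (two-sided exact permutation p = 0.1, adjusted p = 0.3 over 3 tests; no lower p than 0.1 is possible with 3 libraries a side). With the 185 of these genes that differed between layers by a log2 over 3 the ratio was 0.328, and with the 7 genes higher in endoderm at stages 24 and 25 it was 0.870.

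**Figure D4:**
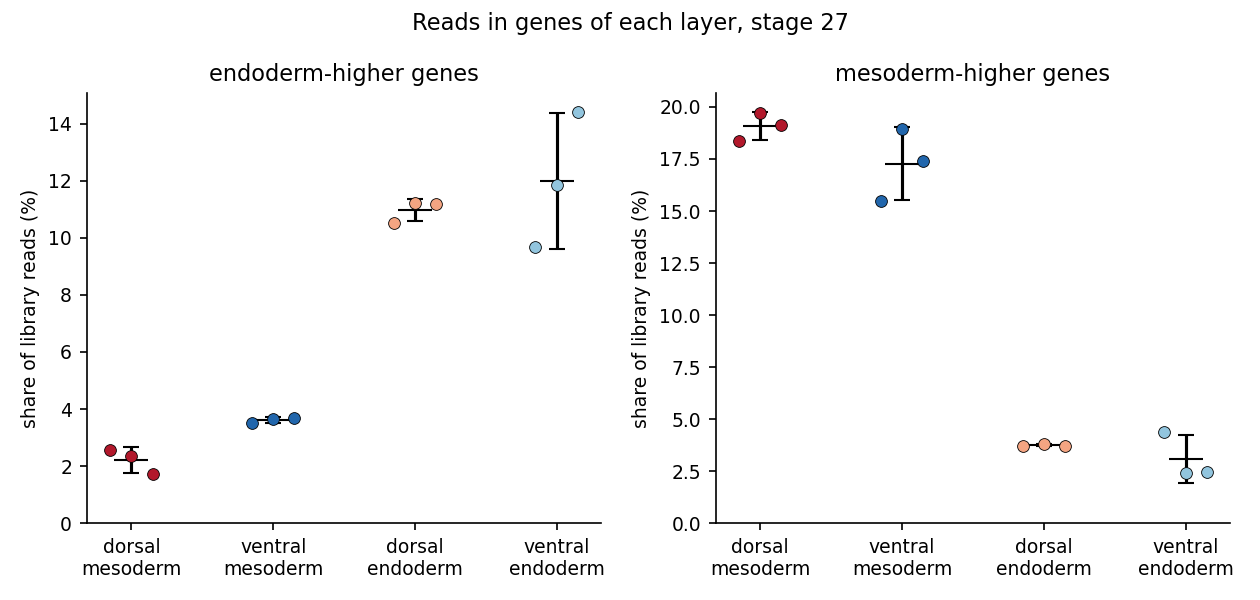
Share of each library's reads (%) in the 495 endoderm-higher genes (left) and the 878 mesoderm-higher genes (right) by region at stage 27, with points for libraries and bars for the mean and SD (n = 3). Dorsal mesoderm lies below ventral mesoderm for the endoderm-higher genes, at 2.21% and 3.62%, and both lie far below the endoderm groups.

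The mesoderm-higher genes tended to differ in the other direction. Of the 878, 542 were higher and 336 lower dorsally (38.3% lower), with a median log2 difference of 0.32. This median was 0.73 with median centring and 0.35 with quantile normalization. In endoderm the same genes had a median side difference of 0.24, with 32.8% lower dorsally, against 47.7% of all genes tested. The part of mesoderm RNA in these endoderm values was not tested. Their share of reads overlapped between the endoderm sides, at 3.72%, 3.79% and 3.71% dorsally and 4.40%, 2.40% and 2.46% ventrally. They took 18.4%, 19.7% and 19.1% of the reads in dorsal mesoderm, against 15.5%, 19.0% and 17.4% in ventral mesoderm. The sides overlapped (ratio 1.10, two-sided exact permutation p = 0.2, adjusted p = 0.3 over 3 tests), and with the 7 genes higher in mesoderm at stages 24 and 25 the ratio was 0.765, in the other direction. The dorsal libraries lay wholly above the ventral ones for 167 of the 878 (19.0%), against 4.48% of all genes, and wholly below for 87 (9.91%), against 7.51%.

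The level in mesoderm as a percentage of that in endoderm was set beside that of the other endoderm-higher genes for the 14 called ones, as a description. Of the 495 genes, 422 had at least 20 CPM in endoderm on both sides. For these the dorsal percentage had a median of 9.90% (quartiles 2.42% and 23.9%) and the ventral percentage a median of 21.6% (quartiles 12.3% and 35.6%), and the ventral one was the higher for 340 of 422. Of the 14 called genes, all of them in this list, 13 lay below the dorsal median, and 4 lay above the ventral median. These genes were chosen for a dorsal level far below the ventral one, so a low dorsal percentage follows from that choice and nothing is read from it. The part of endoderm RNA in the ventral mesoderm captures was not tested.

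**Figure D5:**
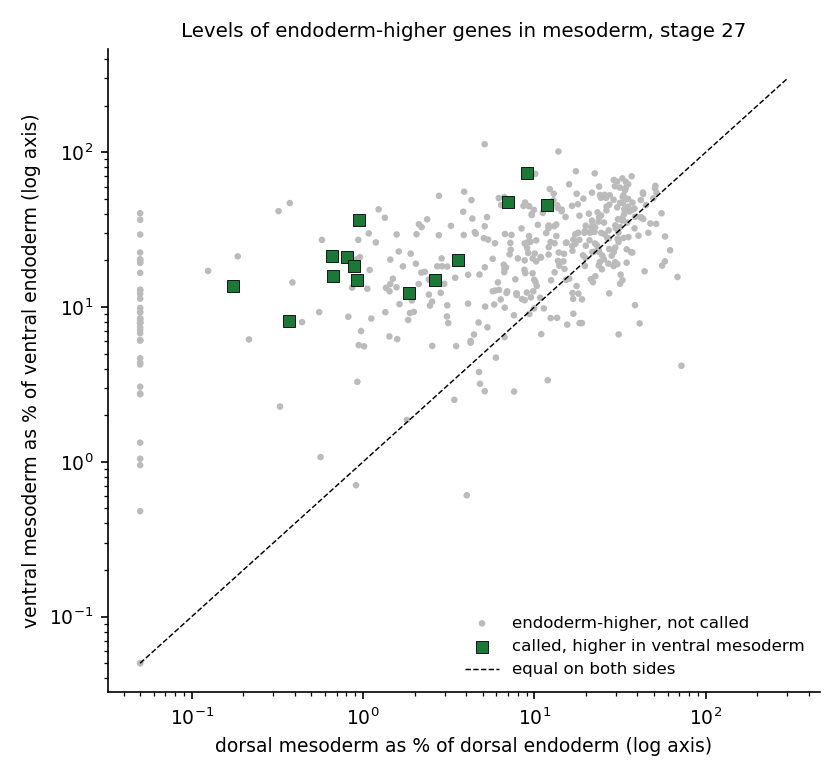
Mean CPM in mesoderm as a percentage of that in endoderm, dorsal side on the x axis and ventral side on the y axis (both log axes), for 422 endoderm-higher genes, with percentages under 0.05% drawn at 0.05%. Most points lie above the dashed line of equality (340 of 422). Of the 14 called genes (squares), 13 lie below the dorsal median of 9.90%, while the points furthest left are genes that were not called.

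Many genes had reads on a single side. In the 13471 genes tested, 32 were read in all 3 dorsal mesoderm libraries and in none of the ventral ones, of which 3 were called, and 180 were read in none of the dorsal and all 3 ventral libraries, of which 7 were called. Over all genes tested 0.275% were called. Such a gene could pass the filter through the libraries of 1 side alone, so nothing is read from the called counts. The ventral libraries were deeper, and at an equal depth of 723011 reads the numbers were 49 and 152. At that depth dorsal replicate 3 still had reads of only 8511 genes, against 10471 to 12635 in the ventral libraries, which bears on both numbers.

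The mesoderm of stages 24 and 25, whose libraries had no part in choosing the genes, held reads of only some of the 37. Each of those libraries held reads of 2616 to 7283 genes, against 8511 to 13512 in stage 27 mesoderm. A missing read at the earlier stages therefore does not show that a gene was not expressed. At stage 24, 23 of the 37 (62.2%) had a read in dorsal or ventral mesoderm, against 76.3% of all genes tested, and at stage 25, 27 (73.0%) had one, against 68.7%. Of the 9 dorsal genes 5 had reads at stage 24, with the dorsal mean higher for 2 and the ventral mean for 3, and 5 at stage 25, with the dorsal mean higher for 3 and the ventral mean for 2. Of the 14 ventral genes that were not endoderm-higher, 6 had reads at stage 24 (3 with the dorsal and 3 with the ventral mean higher) and 10 at stage 25 (2 dorsal and 8 ventral). Of the 14 endoderm-higher ventral genes, 12 had reads at stage 24 (4 with the dorsal and 8 with the ventral mean higher) and 12 at stage 25 (3 dorsal and 9 ventral). Such a direction can rest on few reads or on 1 library. At stage 25 AMCG00008538 had 1 read on each side and counts as ventral. The stage 25 ventral mean of AMCG00009551 came mostly from 1 library, at 117 CPM. Over all genes tested with a read, the dorsal mean was the higher for 6184 and the ventral mean for 4098 at stage 24, and the dorsal mean for 4819 and the ventral mean for 4435 at stage 25. At stage 25 the libraries of the 2 sides did not overlap for 2 of the 37, both higher ventrally, against 2.06% of all genes tested higher dorsally and 1.26% higher ventrally. At stage 24 they did not overlap for 0 of the 37, against 3.69% higher dorsally and 0.765% higher ventrally of all genes.

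Among the named genes, AMCG00008538 had no mesoderm read at stage 24 and at most 1.00 CPM in any mesoderm library at stage 25. AMCG00004620 had no read in dorsal mesoderm at either earlier stage, no read in ventral mesoderm at stage 24, and 1259.6, 56.4 and 0 CPM in ventral mesoderm at stage 25. AMCG00012666 had no mesoderm read at stage 24 and 6.96 CPM in 1 ventral library at stage 25. AMCG00004155 had at most 1.33 CPM in a dorsal and 5.93 CPM in a ventral mesoderm library of either stage. The stage 27 dorsal levels of AMCG00012666 and AMCG00004155 were thus not seen in the earlier dorsal mesoderm libraries, which held reads of fewer genes. AMCG00009551 had no mesoderm read at stage 24, and at stage 25 it had 0, 0.765 and 0 CPM dorsally against 1.00, 0 and 117 CPM ventrally. AMCG00016115 had 0, 1.34 and 26.0 CPM in dorsal mesoderm at stage 24, no read in ventral mesoderm at stage 24 and no mesoderm read at stage 25. AMCG00004892 was read in every mesoderm library of the earlier stages, at 1822, 559.9 and 1.18 CPM dorsally against 5.35, 13.7 and 466 CPM ventrally at stage 24, with the sides overlapping.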

How the data were processed

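The authors deposited 1 table of log2 CPM for 21948 genes in 36 libraries, 11428 with a spotted gar identifier. Per the submitters' processing notes, Trimmomatic 0.38, STAR 2.6, edgeR (no version) and R 3.6.0 were used; genome build, annotation and counting are not given in the sources used here. RNA was amplified before library construction, per the labels' protocols, so reads are not independent molecules and floors cover counting error only. The smallest log2 value was 0.875, as a prior count of 2 gives, and whole reads were recovered from the table: below 200 reads, 100% of values were whole within 0.02, and log2 values rebuilt from them were within 5.0e-09 of the deposited ones. No 2 libraries were identical.

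The 12 stage 27 libraries entered 1 limma 3.58.1 fit of group means in R 4.3.3, on the deposited log2 CPM, with a variance trend. The prior taken from this trend over all genes tested had 28.5 degrees of freedom. A gene was tested where at least 3 libraries had a recovered CPM over 1, and Benjamini-Hochberg adjustment ran over all 13471 genes, with a threshold of 0.05. Single values per library were compared by two-sided exact permutation tests. The 2 genes with the largest log2 difference in each direction without overlap of libraries, and those of the test between layers, are named. Lists of markers and pathway genes by symbol matched no identifier and were not used. The comparison, the lists and the choice of the 12-library fit were made with earlier results of these data known. Alternatives were other filters, pseudocounts, scalings, thinning to equal depth, other variance models, other sets of libraries, limma voom on recovered reads, replicate blocks, and leaving out libraries.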

Additional observations from a re-analysis of the deposited data

Results flagged for a closer look

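For 2 genes the test of the difference itself found a side difference in mesoderm unlike that in endoderm at stage 27. For AMCG00004892 the difference was 2.60 on the log2 scale: mean dorsal levels were higher than ventral ones in mesoderm and lower in endoderm. In endoderm the sides overlapped and their difference was not called (limma adjusted p = 0.665). The difference between the layers missed the threshold in 17 of 29 alternatives (limma adjusted p from 0.00412 to 1.0). For AMCG00009551 the difference between the layers was -4.60: the gene was lower dorsally in mesoderm, while the sides of endoderm overlapped. This difference missed the threshold in 21 of 29 alternatives (limma adjusted p from 0.00291 to 0.906).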

How the results depend on the processing

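The count of 37 genes between dorsal and ventral mesoderm stayed within 1.5 times of itself in 20 of 30 alternatives. It was 14 with no filter (13 of them among the 37), 67 with library quality weights (36 among the 37), 171 with all 36 libraries (17 among the 37), 1 with the 6 mesoderm libraries alone (930 at an unadjusted p under 0.05) and 59 with limma voom (26 among the 37). Leaving out libraries gave 0 to 45, and 9 to 45 for single libraries; limma called 0 without replicate 1 and 0 without replicate 2 of every group (849 and 822 at an unadjusted p under 0.05), which leaves 2 libraries a group. Endoderm-higher genes made up 14 of the 28 ventral calls, and 7 of 13 with no filter, on the same list of endoderm-higher genes. The count of 2 genes that differed between layers became 0 with no filter, a pseudocount of 5 CPM, median centring or thinned reads. It was 1 with quantile normalization (1 among the 2) and 1 with no variance trend (0 among the 2). With all 36 libraries it was 61 (0 among the 2), and with libraries left out 0 to 9. At an unadjusted p under 0.05 limma had 706 genes with the settings reported. The count of 5 endoderm genes became 1 with no filter, 8 with a filter at 4 CPM and 3 with a pseudocount of 5 CPM. It was 0 with no variance trend (752 at an unadjusted p under 0.05), 9 with a robust prior (3 among the 5) and 13 with quality weights. With all 36 libraries it was 56 (0 among the 5), with limma voom 16, and with libraries left out 0 to 49. The count of 1373 layer genes became 279 to 1354 with libraries left out. The share ratio ran from 0.562 to 0.679 for endoderm-higher genes, and from 1.05 to 1.16 for mesoderm-higher genes, with libraries left out; the ratio for mesoderm-higher genes reversed to 0.765 when the list was taken from stages 24 and 25. The ratio of genes detected ran from 0.828 to 0.990. No named gene changed sign in any alternative. The causes were not tested.

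Replicate numbers were not treated as pairs. Deviations of same-numbered dorsal and ventral mesoderm libraries correlated at -0.02 to 0.04, and those of other numbers at -0.04 to 0.05. Between endoderm and mesoderm of one side, same-numbered libraries correlated at 0.022 to 0.064, and those of other numbers at -0.051 to 0.018. Every same-numbered value of this kind thus lay above every other one, though all were small. What same-numbered libraries of a side share is not labelled and was not tested, and these correlations cannot show whether it is an embryo. With the replicate number as a fixed block limma called 42 genes in mesoderm, 1 between layers and 8 in endoderm. Depth limits what a missing read shows: 3 reads over a group correspond to 1.04 CPM for dorsal mesoderm, against 0.632 CPM for ventral mesoderm.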
